A study of Homo sapiens with 11 samples.

Results

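The genes described here make, sense and move cholesterol and fatty acids. A list of 35 was drawn up by the known roles of the genes, with earlier results of these data known. Its counts beside all genes are therefore a description. For each gene the probe set with the highest mean over all arrays was taken among probe sets annotated with a single gene symbol. In this way 32 of the 35 genes could be followed, of 19775 genes with such a probe set, and all 32 were among the 12299 genes tested, which had to reach the 60th percentile of an array at least once. Of the 32 genes 30 reached it on all 11 arrays, MVD on 10, and the exporter ABCA1 on 4, which are the 4 doxycycline arrays. ABCA1 was thus tested only because it is high there, and its values with doxycycline against without are given as a description. CYP51A1 and FADS1 were only on probe sets that also carry another gene's symbol, and FDFT1 was not analysed here.

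A673sh is an Ewing sarcoma cell line with a doxycycline-inducible short hairpin RNA (shRNA) against EWS-FLI1, the fusion oncoprotein that drives this tumor. RNA was measured on 11 Affymetrix arrays in 7 groups, all from A673sh cells kept in serum with Blasticidine and Zeocin and transiently transfected with a lipid reagent. Cells with the scrambled control plasmid pRS-sh-scrambled (sh-scrambled) or with pRS-sh-FOXO1, directed against endogenous FOXO1 (sh-FOXO1), were untreated or received 1 µg/ml doxycycline for 48 h, with 2 arrays in each of these 4 groups. Of the other groups, with 1 array each and no doxycycline, 1 received the empty pCDNA3 vector, 1 FLAG-FOXO1-AAA, whose AKT phosphorylation sites are alanines (AKT-resistant FOXO1), and 1 FLAG-FOXO1-S249A/S298A, which lacks the CDK2 sites (CDK2-resistant FOXO1). All groups come from the same A673sh line. No doxycycline-treated cells without the EWS-FLI1 hairpin were included, so doxycycline and EWS-FLI1 knockdown cannot be told apart. The comparisons ask how loss of EWS-FLI1, loss of FOXO1 and gain of nuclear FOXO1 change expression.

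Cells build cholesterol from acetyl-CoA through mevalonate, farnesyl diphosphate and squalene, and build fatty acids from the same precursor. The transcription factors SREBP1 and SREBP2, the products of SREBF1 and SREBF2, turn on most enzymes of both pathways when sterols are scarce. SCAP escorts them to the Golgi, where they are activated, and INSIG1 and INSIG2 hold SCAP back when sterols are plentiful. When sterols are in excess, the oxysterol receptors LXR instead raise ABCA1, which exports cholesterol, and MYLIP, a ubiquitin ligase that removes lipoprotein receptors.

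All levels are log2 values as the authors normalized them, and a difference of 1 is a 2-fold change. FLI1, whose 3' part is in the fusion, read 8.84 and 8.71 in sh-scrambled cells and 6.92 and 6.93 with doxycycline, an estimated change of −1.85 (standard error 0.10, adjusted p = 2.09e-07, limma). The doxycycline arrays of sh-FOXO1 cells read 7.17 and 7.25, 0.29 above sh-scrambled cells with doxycycline (adjusted p = 0.0461, limma). FOXO1 read 5.86 and 5.81 in sh-scrambled cells and 4.97 and 4.80 in sh-FOXO1 cells, and with doxycycline 7.35 and 7.04 against 5.76 and 5.75. On the plasmid arrays it read 5.84 (empty vector), 8.30 (AKT-resistant) and 7.06 (CDK2-resistant). The Ewing sarcoma marker genes CD99, STEAP1, LIPI, NPY1R, PRKCB and NKX2-2 reached the 60th percentile on all 11 arrays, XG on 7 and CCK on 3. Of markers of other cells, PTPRC, CDH1, EPCAM, CDH5, ADIPOQ and ALB reached it on none, whereas KRT8, KRT18 and PECAM1 reached it on all 11.

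Sterol and fatty acid enzymes were lower as a group once EWS-FLI1 was knocked down. In sh-scrambled cells 12 of the 32 genes fell, where a call needed a log2 fold change past 1 at an adjusted p under 0.05 (limma). ABCA1 alone passed this limit upward, but it was tested only because it is high with doxycycline, so that is a description. Over all genes tested 6.31% were called lower and 6.98% higher by this rule. The median log2 fold change was −0.59 for the 32 genes and −0.04 for all genes. At an adjusted p under 0.05 and any size of change, 26 of the 32 were lower and 3 higher, beside 33.9% and 26.4% of all genes. ABCA1 is among the 3. The doxycycline arrays were below the untreated arrays without overlap in 28 genes, above them in 3 and overlapped in 1, where 43.1% of all genes were below and 34.6% above. Arrays give no depth, and their small number limits the precision. The labels do not say whether the paired arrays are separate cultures, so p-values reflect only how these samples vary, and that variation may be technical. Fewer cells of a kind and less RNA per cell cannot be told apart in bulk RNA.

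**Figure D1:**
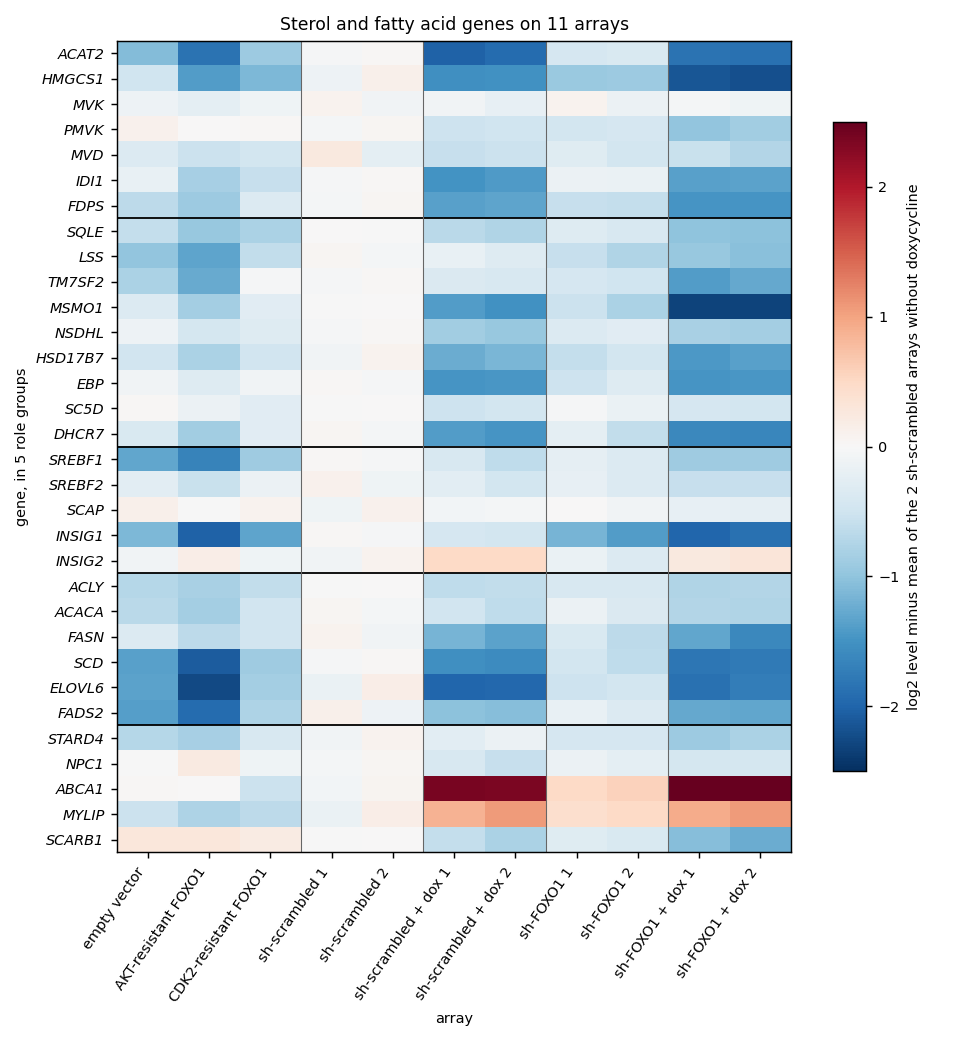
Log2 level of each of the 32 genes (rows, with lines between the role groups) on each of the 11 arrays (columns), minus the gene's mean on the 2 sh-scrambled arrays without doxycycline; blue is lower and red higher. Most enzyme rows are blue on the doxycycline arrays, and ABCA1 and MYLIP are red there, with ABCA1 at 6.71 and 6.69 in sh-scrambled cells with doxycycline.

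In the early steps from acetyl-CoA to farnesyl diphosphate, 4 of 7 genes fell and none rose, with a median of −1.34. ACAT2, the cytosolic acetoacetyl-CoA thiolase that opens the route, read 10.65 and 10.71 in sh-scrambled cells and 8.66 and 8.75 with doxycycline. The arrays of the 2 groups were far apart, and the estimate was −1.97 (standard error 0.07, adjusted p = 1.55e-08, limma), a 3.92-fold lower level. HMGCS1, which joins acetyl-CoA to acetoacetyl-CoA to form HMG-CoA, read 9.58 and 9.84 without and 8.18 and 8.20 with doxycycline. It fell by 1.52 on the log2 scale (standard error 0.09, adjusted p = 4.19e-07, limma). The isomerase IDI1 was at −1.45 and the farnesyl diphosphate synthase FDPS at −1.34. The mevalonate kinases and the decarboxylase between them moved less: PMVK was at −0.52, MVD at −0.56 and MVK at −0.15, the last with an adjusted p = 0.211 (limma). Further MVK probe sets that reached the 60th percentile on some arrays gave −0.29 and −0.83.

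From squalene to cholesterol 4 of the 9 genes measured fell and none rose, with a median of −0.91. MSMO1, which oxidises the methyl groups of sterols, read 10.87 and 10.90 without and 9.48 and 9.37 with doxycycline, at −1.46 (standard error 0.09, adjusted p = 7.76e-07, limma). The sterol isomerase EBP read 9.65 and 9.60 against 8.15 and 8.17, also at −1.46 (standard error 0.08, adjusted p = 2.67e-07, limma). Both genes were lower on every doxycycline array than on any untreated one. DHCR7, a dehydrocholesterol reductase, was at −1.44 and the ketoreductase HSD17B7, which has a near-identical pseudogene that the probe set may also detect, at −1.19. The dehydrogenase NSDHL at −0.91, the squalene epoxidase SQLE at −0.71, the desaturase SC5D at −0.49, the reductase TM7SF2 at −0.38 and the lanosterol synthase LSS at −0.25 had adjusted p-values under 0.05 but did not reach the limit.

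Of the 6 fatty acid synthesis genes measured 4 fell and none rose, with a median of −1.15. ELOVL6, which lengthens palmitate, read 9.57 and 9.89 in sh-scrambled cells and 7.74 and 7.76 with doxycycline, the lowest fold change of the 32 genes at −1.98 (standard error 0.10, adjusted p = 2.1e-07, limma), or 3.94-fold lower. SCD, the desaturase that makes oleate, read 11.14 and 11.19 against 9.64 and 9.59, at −1.55 (standard error 0.08, adjusted p = 1.41e-07, limma). The fatty acid synthase FASN was at −1.25 and the desaturase FADS2 at −1.05. FADS2 was at −0.92 without sh-scrambled replicate 1, under the limit. The enzymes that supply the building blocks, ACLY at −0.63 and ACACA at −0.56, did not reach it. Further probe sets of the same genes, among those that reached the 60th percentile on 1 array or more, did not all give the same size of change. Of 14 for 8 of the 12 genes that fell, 8 were also past −1 and 6 were not. The 6 were 2 of IDI1 at −0.10 and −0.08, 2 of EBP at −0.57 and −0.45, 1 of FASN at −0.19 and 1 of FADS2 at −0.82. Of 22 for genes under the limit 3 were past it, 1 each of SQLE at −1.08, ACACA at −1.32 and MYLIP at 1.07.

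None of the 5 regulators passed the limit. SREBF1 read 7.95 and 7.91 in sh-scrambled cells and 7.53 and 7.29 with doxycycline, at −0.52 (standard error 0.09, adjusted p = 0.000644, limma). SREBF2 was at −0.36, INSIG1 at −0.44 and SCAP at −0.06 (adjusted p = 0.545, limma), the 1 gene whose doxycycline and untreated arrays overlapped. INSIG2, whose product holds SCAP in the endoplasmic reticulum as that of INSIG1 does, moved the other way from INSIG1. It read 7.33 and 7.49 without and 7.91 and 7.90 with doxycycline, at 0.50 (standard error 0.08, adjusted p = 0.000633, limma).

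Among genes of transport and uptake ABCA1 read 4.27 and 4.39 in sh-scrambled cells and 6.71 and 6.69 with doxycycline, a difference of 2.37 (standard error 0.12) or 5.15-fold. No other of the 32 genes was called higher. Its untreated readings lay just above the lower quartile of the arrays, 4.08 to 4.09, so its exact fold is uncertain. MYLIP read 8.90 and 9.21 without and 9.92 and 10.12 with doxycycline, at 0.96 (standard error 0.11, adjusted p = 6.24e-05, limma), just under the limit. The HDL receptor SCARB1 was at −0.69 and NPC1, which releases cholesterol from lysosomes, at −0.49. The sterol carrier STARD4 was at −0.21 (adjusted p = 0.0558, limma).

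**Figure D2:**
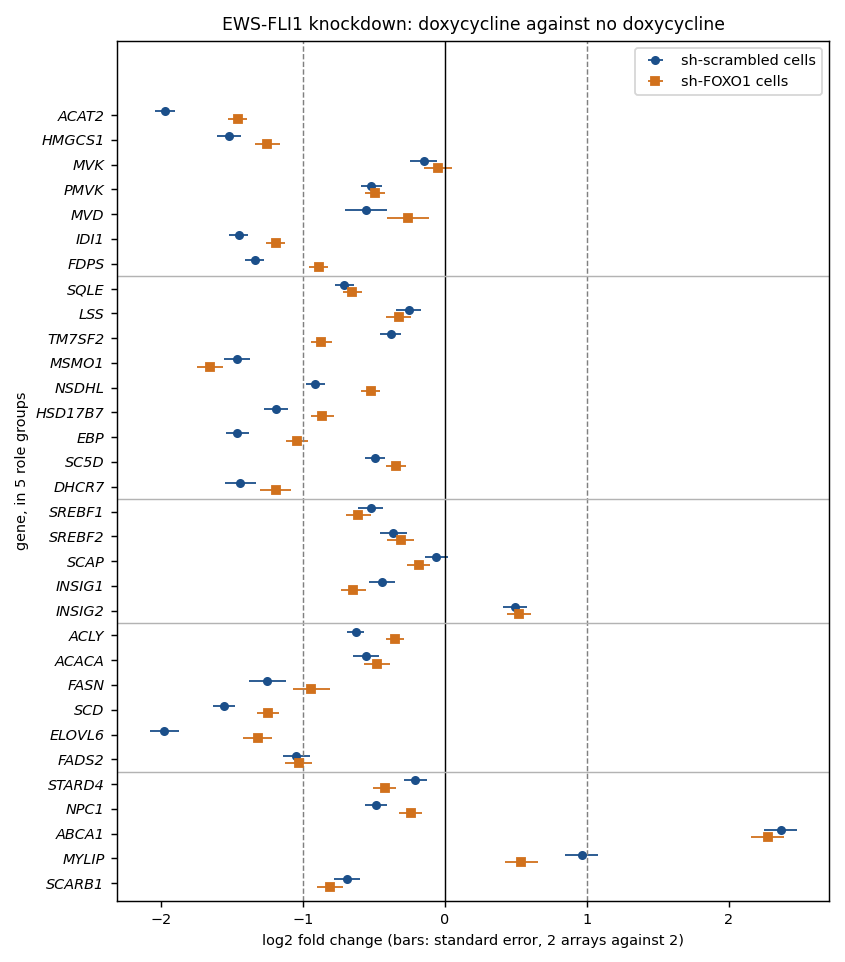
Log2 fold change of each gene with doxycycline against without (x axis; bars are standard errors, 2 arrays against 2) in sh-scrambled cells (blue circles) and sh-FOXO1 cells (orange squares), by role group. Dashed lines mark the limit of 1; ELOVL6 is at −1.98 and −1.32, MSMO1 at −1.46 and −1.65 and ABCA1 at 2.37 and 2.27.

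RefSeq (GRCh38.p14) held a promoter window for 28 of the 32 genes. Sequences are shown for the 6 of these with the largest changes in this comparison, which several results rest on; SCD and HMGCS1 are textbook targets of SREBP. Each is the 250 bases before the start of transcription, 5′ to 3′ on the gene's strand. For HMGCS1, with 2 listed starts, the start farther upstream is shown. Capitals mark 4 motifs searched on both strands: TCACNCCAC, a sterol response element, CCAAT, the box bound by NF-Y, a partner of SREBP, TGTTTAC, a forkhead motif, and CCGGAAG, an ETS motif.
ELOVL6 (chr4:110198616-110198865, - strand): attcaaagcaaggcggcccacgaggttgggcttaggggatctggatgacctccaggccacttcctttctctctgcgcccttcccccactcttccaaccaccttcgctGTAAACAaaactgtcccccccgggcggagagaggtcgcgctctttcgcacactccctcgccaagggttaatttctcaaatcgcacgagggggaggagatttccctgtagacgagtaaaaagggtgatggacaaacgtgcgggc
SCD (chr10:100346983-100347232, + strand): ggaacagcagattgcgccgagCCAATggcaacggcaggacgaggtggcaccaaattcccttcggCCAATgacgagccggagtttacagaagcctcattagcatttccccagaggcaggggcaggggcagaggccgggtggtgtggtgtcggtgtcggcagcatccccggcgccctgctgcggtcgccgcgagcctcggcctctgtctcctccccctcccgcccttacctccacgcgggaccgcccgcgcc
HMGCS1 (chr5:43313413-43313662, - strand): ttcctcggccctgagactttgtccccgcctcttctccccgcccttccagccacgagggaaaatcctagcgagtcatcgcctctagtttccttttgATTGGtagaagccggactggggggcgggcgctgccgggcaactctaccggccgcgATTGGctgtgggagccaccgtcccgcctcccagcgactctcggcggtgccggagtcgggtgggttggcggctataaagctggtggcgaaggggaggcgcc
EBP (chrX:48521558-48521807, + strand): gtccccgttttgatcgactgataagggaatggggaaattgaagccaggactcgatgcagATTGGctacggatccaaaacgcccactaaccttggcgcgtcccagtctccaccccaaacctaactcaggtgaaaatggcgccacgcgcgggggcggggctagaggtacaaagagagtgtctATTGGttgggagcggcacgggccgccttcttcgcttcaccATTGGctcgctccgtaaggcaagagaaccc
MSMO1 (chr4:165327419-165327668, + strand): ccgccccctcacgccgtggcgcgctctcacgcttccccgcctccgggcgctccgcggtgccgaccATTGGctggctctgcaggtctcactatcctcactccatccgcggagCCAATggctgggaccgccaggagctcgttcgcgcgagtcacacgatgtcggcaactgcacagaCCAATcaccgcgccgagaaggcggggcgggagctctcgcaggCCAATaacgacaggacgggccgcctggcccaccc
ABCA1 (chr9:104928156-104928405, - strand): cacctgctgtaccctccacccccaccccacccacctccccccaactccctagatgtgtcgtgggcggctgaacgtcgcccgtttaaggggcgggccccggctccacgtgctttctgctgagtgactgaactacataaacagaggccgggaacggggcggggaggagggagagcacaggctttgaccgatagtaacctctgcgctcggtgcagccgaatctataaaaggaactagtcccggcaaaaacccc
The NF-Y box stood 2 times in SCD and in HMGCS1, 3 times in EBP and 4 times in MSMO1. ELOVL6 held a forkhead match on the opposite strand and no NF-Y box, and ABCA1 held none of the 4 motifs. In any of a gene's listed windows the NF-Y box was found in 20 of the 28 genes, beside 37.0% of all 27305 genes in the table. The ETS motif was found in 3 of the 28 (IDI1, FDPS and INSIG2), beside 10.2% of all genes. The forkhead motif was found in ELOVL6 alone (3.66% of all genes) and the sterol response element in SREBF2 alone (1.09%). A match is a description of these letters, not evidence of binding.

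The fall was also seen with FOXO1 silenced, though FOXO1 was not absent. In sh-FOXO1 cells it rose with doxycycline by 0.86 (adjusted p = 8.59e-05, limma), to 5.76 and 5.75. Untreated sh-scrambled cells read 5.86 and 5.81. Here 9 of the 32 genes fell with doxycycline (limma), beside 5.48% lower and 6.06% higher over all genes. Again ABCA1 alone passed the limit upward, given as a description. The median was −0.63 against −0.05 for all genes. At any size of change 26 were lower and 3 higher at an adjusted p under 0.05, beside 32.8% and 24.2%. MSMO1 had the lowest log2 fold change here: it read 10.36 and 10.09 in sh-FOXO1 cells and 8.58 and 8.57 with doxycycline, at −1.65 (standard error 0.09, adjusted p = 3.91e-07, limma). These doxycycline arrays held its lowest levels of all 11. ACAT2 was at −1.46, ELOVL6 at −1.32, HMGCS1 at −1.25, SCD at −1.24, DHCR7 at −1.19, IDI1 at −1.19, EBP at −1.04 and FADS2 at −1.03. Of 37 further probe sets of the 32 genes 32 had the same sign, and 5 had the opposite sign by over 0.2. IDI1 was at −1.24, 0.04 and 0.32 by its others, and SCD at −0.88, −1.38 and −1.31. FASN at −0.94, FDPS at −0.89 and HSD17B7 at −0.86 did not reach the limit. EBP was at −0.94 without sh-FOXO1 replicate 2 and FADS2 at −0.95 without sh-FOXO1 replicate 1. After quantile normalization both were at −0.99. ABCA1 read 4.84 and 4.90 without and 6.95 and 7.34 with doxycycline, a difference of 2.27 (standard error 0.12). INSIG2 was at 0.52 and MYLIP at 0.54.

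Whether the knockdown effect differed between sh-FOXO1 and sh-scrambled cells was tested as an interaction. None of the 32 genes passed a log2 limit of 0.7 in either direction, beside 1.19% of all genes higher and 2.24% lower. At an adjusted p under 0.05 and any size, 5 of 32 were higher (a weaker fall in sh-FOXO1 cells) and 1 lower, beside 3.65% and 5.42% of all genes. The higher ones were ELOVL6 at 0.66, ACAT2 at 0.51, FDPS at 0.45, EBP at 0.42 and NSDHL at 0.39, and the lower one was TM7SF2 at −0.49. ELOVL6 passed the limit, at 0.82 and 0.73, without sh-scrambled replicate 1 or sh-FOXO1 doxycycline replicate 1. By a second probe set ELOVL6 was at −2.13 with the scrambled hairpin and −1.91 with FOXO1 silenced, a smaller gap. NSDHL was at −0.79 and −0.58 by its second, also a smaller gap. EBP was at −1.38 and −0.95 by its brightest further probe set. By the dimmer ones it was at −0.57 and −0.29 and at −0.45 and −0.16, smaller gaps. ACAT2, FDPS and TM7SF2 had no further probe set. The knockdown of FLI1 itself was −1.85 with the scrambled hairpin and −1.49 with FOXO1 silenced (interaction 0.37, adjusted p = 0.14, limma), and its part in these differences was not tested.

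After FOXO1 silencing INSIG1 had the lowest log2 fold change of the 32 genes, both with and without doxycycline. Without doxycycline INSIG1 read 9.96 and 9.89 in sh-scrambled and 8.77 and 8.52 in sh-FOXO1 cells, at −1.28 (standard error 0.09, adjusted p = 2.38e-05, limma). With doxycycline it read 9.50 and 9.47 against 7.95 and 8.06, at −1.48 (standard error 0.09, adjusted p = 1.36e-05, limma). The groups did not overlap in either case, and the interaction was −0.20 (adjusted p = 0.386, limma). Its other 2 probe sets above the 60th percentile gave values from −0.87 to −1.33 over the 2 comparisons. INSIG2 was at −0.25 and −0.23 (adjusted p = 0.0485 and 0.0698, limma). Sh-scrambled was the only control in these comparisons. INSIG1 read 8.79 on the empty vector array, near the untreated sh-FOXO1 arrays, and the part of the control plasmid was not tested.

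With EWS-FLI1 still expressed, 2 of the 32 genes fell after FOXO1 silencing and none rose past a log2 fold change of 0.7 (limma), beside 1.50% lower and 2.72% higher over all genes. Besides INSIG1 this was HMGCS1, which read 9.58 and 9.84 in sh-scrambled and 8.79 and 8.80 in sh-FOXO1 cells, at −0.91 (standard error 0.09, adjusted p = 0.000123, limma). Its second probe set gave −0.55, under the limit. Smaller shifts to lower values were widespread. At any size 21 of 32 genes were lower and 2 higher at an adjusted p under 0.05, beside 14.8% and 15.9% of all genes. In 28 genes both sh-FOXO1 arrays were below both sh-scrambled arrays, and in 2 above, where 29.5% of all genes were below and 32% above. The median was −0.39 against 0.01 for all genes, and 30 of 32 values were below 0, beside 47.9% of all genes. Empty vector against the same sh-scrambled arrays had a median of −0.43, with 27 of 32 values below 0. Over all genes the median was 0.04, with 46.3% below 0. What this control difference adds to the shift was not tested. LSS was at −0.67, MSMO1 at −0.66, FDPS at −0.58, SCD at −0.54, HSD17B7 at −0.53 and FASN at −0.52. LSS and MSMO1 passed the limit, at −0.76 and −0.80, without sh-FOXO1 replicate 1. SCD was at −0.16, 0.17 and −0.08 by its other probe sets and FASN at −0.15 by a second. Of 37 further probe sets of the 32 genes 30 had the same sign, and 5 had the opposite sign by over 0.2. The 2 genes above 0 were ABCA1 at 0.54 and MYLIP at 0.46 (adjusted p = 0.00719 and 0.0144, limma). ABCA1 was under the 60th percentile on every array of this comparison, at 4.27 to 4.90, and a second ABCA1 probe set gave 0.29.

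With EWS-FLI1 knocked down, 4 of the 32 genes fell after FOXO1 silencing and none rose (limma), beside 2.00% lower and 2.37% higher over all genes. After INSIG1 came TM7SF2, a sterol reductase, which read 7.07 and 7.03 in sh-scrambled and 6.04 and 6.16 in sh-FOXO1 cells with doxycycline, at −0.96 (standard error 0.07, adjusted p = 4.14e-05, limma). MSMO1 read 9.48 and 9.37 against 8.58 and 8.57, at −0.85, and LSS read 9.54 and 9.41 against 8.78 and 8.69, at −0.74. All 3 act between squalene and cholesterol, and the groups did not overlap in any of them. LSS was at −0.68 without sh-scrambled doxycycline replicate 1 and −0.69 without sh-FOXO1 doxycycline replicate 2, under the limit. HMGCS1 at −0.65 and STARD4 at −0.64 did not reach it. At any size 11 of 32 were lower and 1 higher, ABCA1 at 0.45, beside 15.2% and 15.6% of all genes. The median was −0.19 against −0.00 for all genes. ACAT2, IDI1, EBP, NSDHL, SC5D and ELOVL6 lay between −0.00 and 0.17, with adjusted p-values from 0.236 to 0.984 (limma). In this comparison probe sets of 1 gene disagreed most: 8 of 37 further probe sets of the 32 genes had the opposite sign by over 0.2. SCD is an example, at −0.23 by its brightest probe set and at 0.07, 0.50 and 0.24 by the others. ACACA was at −0.18 and 0.96 by its 2 probe sets. ELOVL6, at 0.17 by its brightest probe set, was at −0.32 by a second.

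**Figure D3:**
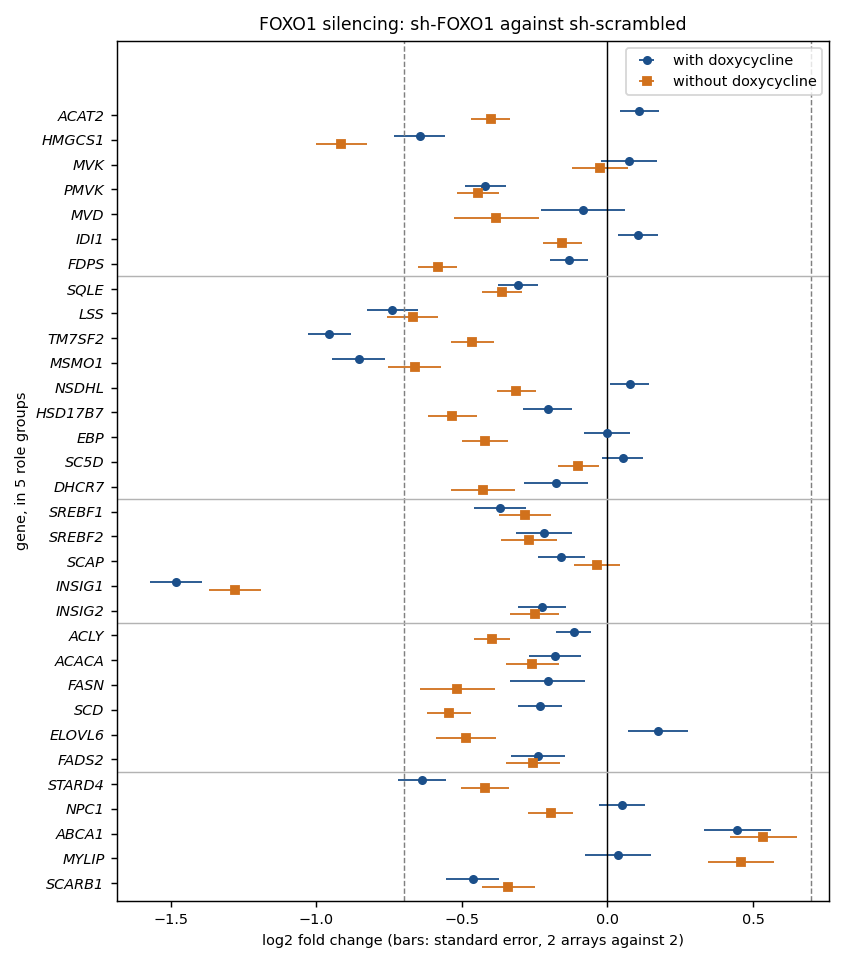
Log2 fold change of each gene in sh-FOXO1 against sh-scrambled cells (x axis; bars are standard errors, 2 arrays against 2) with doxycycline (blue circles) and without (orange squares), by role group. Dashed lines mark the limit of 0.7; INSIG1 lies farthest to the left at −1.48 and −1.28, and most orange squares lie left of 0.

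Among the shRNA groups, the sh-FOXO1 cells with doxycycline had the lowest levels of HMGCS1, at 7.57 and 7.52, and of INSIG1, at 7.95 and 8.06. SREBF1 read 7.70 and 7.59 in sh-FOXO1 cells and 7.04 on both arrays with doxycycline. The 4 comparisons share arrays in pairs, so these values are given side by side and are not independent.

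**Figure D4:**
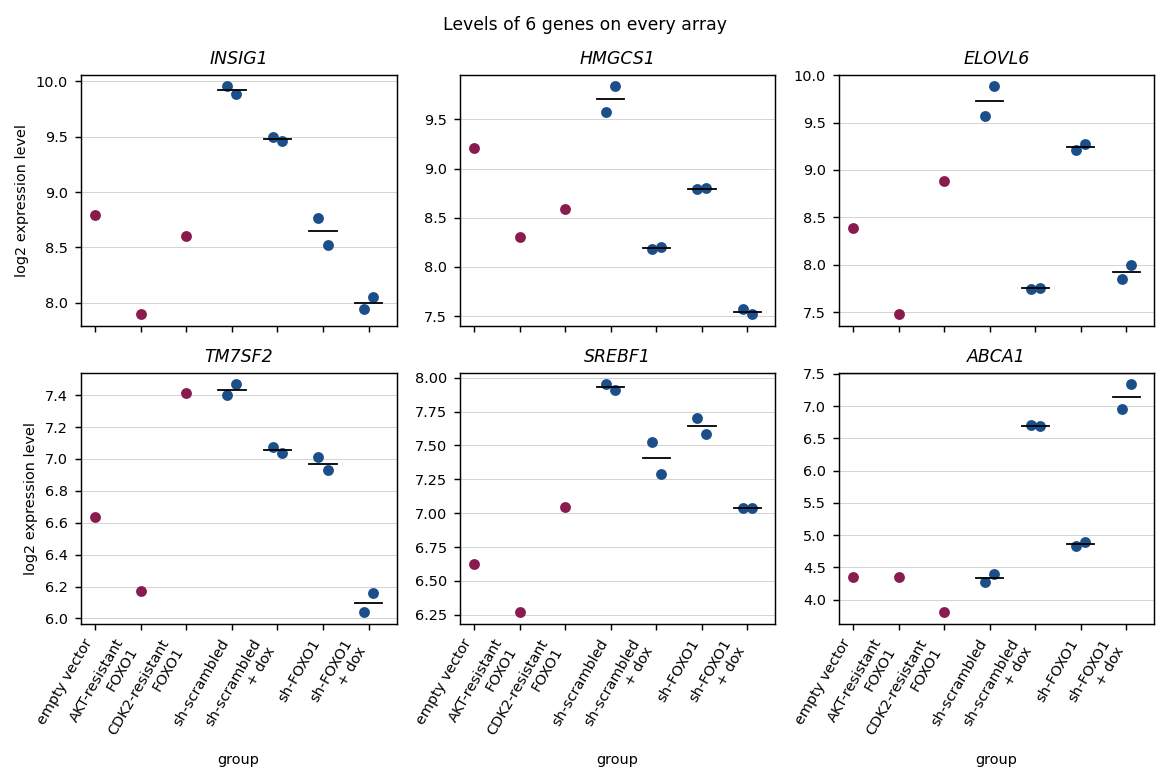
Log2 level of 6 genes (y axis, on its own scale in each panel) on every array by group (x axis); points are arrays, bars the mean of 2 arrays, and purple points are groups with 1 array. INSIG1 falls from 9.96 and 9.89 in sh-scrambled cells to 7.95 and 8.06 in sh-FOXO1 cells with doxycycline, and ABCA1 rises on all 4 doxycycline arrays.

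The FOXO1 mutants were compared with empty vector by a log2 difference past 0.7 alone. Each has 1 array, so there is no replicate check, and no test was run. With AKT-resistant FOXO1, 5 of the 32 genes were lower and none higher, beside 1.11% lower and 1.37% higher over all genes. ELOVL6 read 8.38 with empty vector and 7.48 with the mutant, a difference of −0.91. HMGCS1 read 9.20 and 8.31, INSIG1 8.79 and 7.90, ACAT2 9.59 and 8.84, and SCD 9.81 and 9.08. Of the 32 values 30 were below 0, beside 53.4% of all genes, with a median of −0.30 against −0.02 for all genes. The 2 above 0 were INSIG2 at 0.25 and NPC1 at 0.24. SCD was at −0.22 to −0.34 by its other probe sets.

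With CDK2-resistant FOXO1 no gene was lower and 1 higher, beside 0.878% lower and 1.48% higher over all genes, and the median was −0.00. The gene was TM7SF2, which read 6.64 with empty vector and 7.41 with the mutant. HMGCS1 was at −0.62 and ABCA1 at −0.55, where its reading of 3.80 was below the lower quartile of the array. FADS2 was at 0.60 and ELOVL6 at 0.50. By a second probe set HMGCS1 was at −0.17, ABCA1 at 0.27, FADS2 at 0.51 and ELOVL6 at 0.50. Set directly against each other, which leaves out the empty vector array, AKT-resistant FOXO1 was lower than CDK2-resistant FOXO1 in 8 of 32 genes and higher in none, beside 3.81% and 3.06% of all genes. These were ELOVL6 at −1.40, TM7SF2 at −1.24, SCD at −1.19, FADS2 at −1.14, ACAT2 at −0.93, SREBF1 at −0.78, INSIG1 at −0.71 and LSS at −0.70, and the median was −0.27. The mutants lay closer together by the other probe sets of SCD, FADS2 and INSIG1. Against empty vector these SCD probe sets gave −0.22 to −0.34 with AKT-resistant and −0.08 to 0.26 with CDK2-resistant FOXO1. The second of FADS2 gave 0.04 and 0.51. By a second probe set ELOVL6, at −1.03 and 0.50, and SREBF1, at −0.97 and −0.10, were not closer. FOXO1 itself read 8.30 with the AKT-resistant and 7.06 with the CDK2-resistant mutant, and the part of this in the differences was not tested.

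The controls of the plasmid and shRNA groups differed in these genes by as much as the mutants did. Empty vector was lower than the mean of the 2 untreated sh-scrambled arrays by over 0.7 in 10 of the 32 genes and higher in none, beside 3.37% lower and 6.07% higher over all genes. FADS2 was at −1.38, SCD at −1.35, ELOVL6 at −1.34, SREBF1 at −1.31, INSIG1 at −1.13 and ACAT2 at −1.09. The upper quartile of the plasmid arrays was 7.09 to 7.12 and that of the shRNA arrays 6.94 to 7.01. Plasmid and experiment cannot be told apart here, and the FOXO1 silencing comparisons rest on sh-scrambled as their only control. Against the mean of all 3 control arrays, which includes the sh-scrambled arrays, the median was −0.60 with the AKT-resistant mutant, beside 0.01 for all genes. With the CDK2-resistant one it was −0.29, beside 0.03. By over 0.7, 13 genes were lower with the AKT-resistant mutant and 2 with the CDK2-resistant one (HMGCS1 at −0.95 and INSIG1 at −0.94). The share of all genes was not counted against this mean, and the part of the control difference was not tested.

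**Figure D5:**
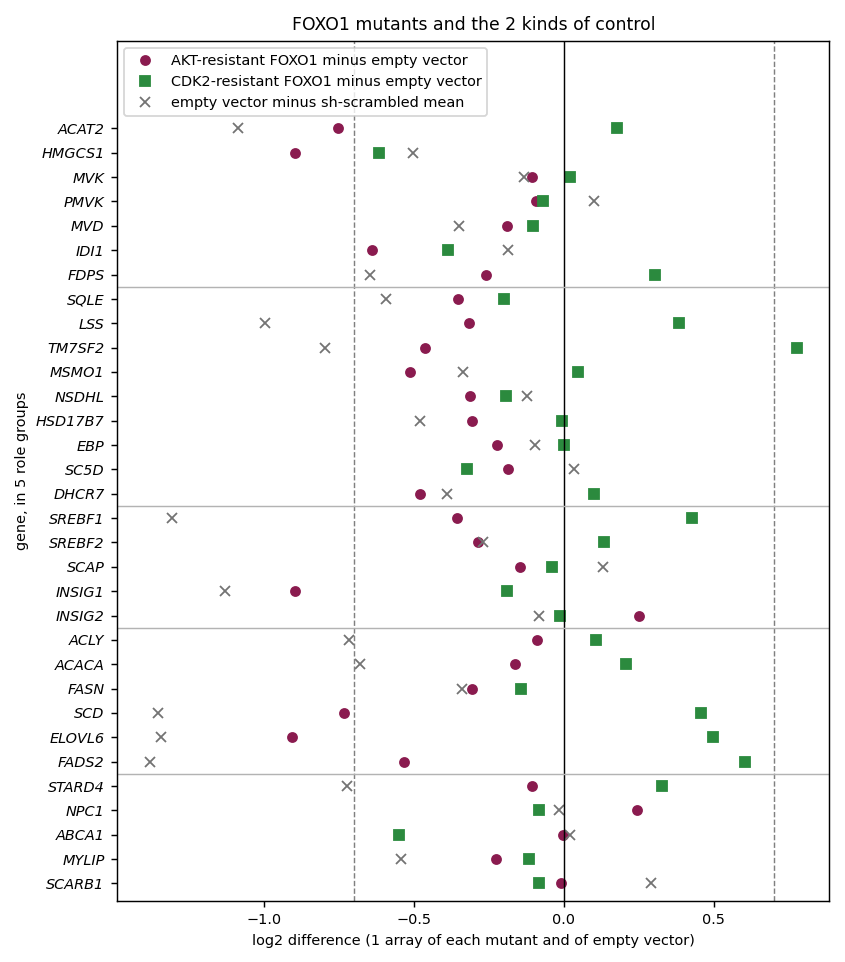
Log2 difference from empty vector of each gene with the AKT-resistant mutant (purple circles) and the CDK2-resistant one (green squares), and of empty vector from the mean of the 2 untreated sh-scrambled arrays (grey crosses), by role group. Dashed lines mark 0.7; the grey crosses of SCD and ELOVL6 lie at −1.35 and −1.34, beyond their purple circles at −0.73 and −0.91.

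Other genes of lipid metabolism were followed in 5 lists. The shares of all genes called lower and higher, given above, were 6.31% and 6.98% for the knockdown with the scrambled hairpin, 5.48% and 6.06% with FOXO1 silenced, 1.50% and 2.72% for FOXO1 silencing without doxycycline, 2.00% and 2.37% with it, and 2.24% and 1.19% for the interaction. Of 8 isoprenoid and sterol accessory genes tested, TMEM97, a sterol-binding protein of the endoplasmic reticulum, fell with the knockdown at −1.86, and at −1.65 with FOXO1 silenced, and after FOXO1 silencing without doxycycline at −0.71 (limma). Of 12 genes of fatty acid activation, supply and elongation, the malic enzyme ME1, which supplies NADPH, fell at −1.33 and −1.48. The acyl-CoA synthetase ACSL1 rose in sh-scrambled cells at 1.21, with 0.82 in sh-FOXO1 cells. FADS3, a desaturase, was at 0.67 and −0.06, and its interaction of −0.73 passed the limit. None of 11 triglyceride and phospholipid genes passed the limit in any shRNA comparison. Of 8 genes that process or degrade SREBP, SCAP and INSIG, none passed it after EWS-FLI1 knockdown, and the ubiquitin ligase subunit FBXW7 rose after FOXO1 silencing with doxycycline at 1.07. Of 12 genes of LXR, cholesterol transport and storage, none passed it after the knockdown. Among these SOAT1, which esterifies cholesterol, fell after FOXO1 silencing at −0.99 without and −0.90 with doxycycline, and the LXR gene NR1H3 rose without doxycycline at 1.09. Median log2 fold changes after the knockdown in sh-scrambled cells were −0.51, −0.37, −0.06, 0.11 and 0.21 for the 5 lists in this order.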

How the data were processed

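The 7 groups of the 11 Affymetrix HG-U133 Plus 2 arrays were taken from the sample labels. The authors deposited a log value, taken here as log2 from the range of 2.60 to 14.6, for each of 54675 probe sets on each array, after summarising and normalizing the arrays. The method was not given in the sources used here. Platform annotation gave 41097 probe sets 1 gene symbol, 1801 several and 11777 none; only the first were used. Each of 19775 genes was represented by its probe set with the highest mean, and 12299 genes were kept whose value was at the 60th percentile or above on 1 or more arrays.

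A limma 3.58.1 model (R 4.3.3) of 7 group means was fitted to all 11 arrays with p-values adjusted by Benjamini-Hochberg. Its 4 residual degrees of freedom come from the shRNA groups, and the prior adds 5.11. Limits were an adjusted p under 0.05 with a change past 1 on the log2 scale (2-fold) for EWS-FLI1 knockdown and 0.7 (1.62-fold) otherwise, and 0.7 alone for the mutants. The fit was tested on simulated data. Counts at any size of change were added after the values had been seen. The members and lists were chosen with earlier results of these data known. Named were all members, the FLI1 and FOXO1 checks, up to 4 genes of each other list past a limit, and promoters of the 6 members with the largest knockdown changes that have a RefSeq window. Protein sequences were not used here. Figures were drawn with matplotlib. Alternatives were another probe set rule, other filters, quantile normalization, other fits and leaving out each array.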

Additional observations from a re-analysis of the deposited data

Results flagged for a closer look

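In 6 of the 32 genes the effect of EWS-FLI1 knockdown differed between sh-FOXO1 and sh-scrambled cells by the interaction term at an adjusted p under 0.05 (limma), all by less than the log2 limit of 0.7. The differences were 0.66 for ELOVL6 (adjusted p = 0.0238), 0.51 for ACAT2 (adjusted p = 0.0115), 0.45 for FDPS (adjusted p = 0.0178), 0.42 for EBP (adjusted p = 0.0493) and 0.39 for NSDHL (adjusted p = 0.0343). In these 5 genes the log2 fold change was negative in both kinds of cells and nearer to 0 in sh-FOXO1 cells. For ELOVL6 and NSDHL the gap was smaller by a second probe set, with ELOVL6 at −2.13 and −1.91. For EBP it was smaller by dimmer probe sets, at −0.57 and −0.29 and at −0.45 and −0.16, but not by another, at −1.38 and −0.95. TM7SF2 differed the other way, at −0.49 (adjusted p = 0.0194), with −0.38 with the scrambled hairpin and −0.87 with FOXO1 silenced.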

How the results depend on the processing

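Of 174 recounts of members past a limit, 154 stayed within 1.5 times the count given, and no tested member changed sign past its limit. Counts that moved were as follows. FOXO1 silencing without doxycycline lowered 1 member by the probe set with the largest interquartile range, as HMGCS1 was then at −0.55. After quantile normalization EWS-FLI1 knockdown in sh-scrambled cells raised 2 members, with MYLIP at 1.01. At an adjusted p alone, higher and lower members numbered 3 and 26 for the knockdown with the scrambled hairpin, 3 and 26 with FOXO1 silenced, 1 and 11 for FOXO1 silencing with doxycycline, 2 and 21 without it, and 5 and 1 for the interaction. Against the mean of 3 control arrays, AKT-resistant FOXO1 had 13 members lower, and CDK2-resistant FOXO1 had 0 higher and 2 lower. Shares of all genes were not counted against this mean, which includes the sh-scrambled arrays. Leaving out each array in turn gave 11 to 12 members lower and 1 to 2 higher for the knockdown with the scrambled hairpin, 8 to 10 lower with FOXO1 silenced, 3 to 4 lower for FOXO1 silencing with doxycycline, 2 to 4 lower without it, and 0 to 1 higher for the interaction. The cause of these shifts was not tested. With 1 array left in a group, that array was assumed to vary like the others.

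The labels do not say what a shared replicate number marks. Differences between replicates 1 and 2 correlated at 0.311 to 0.568 in all 6 pairs of groups, so arrays with the same number varied together. A fit with the replicate number as a block called 12 members lower and 1 higher for the knockdown in sh-scrambled cells and moved no count of members. Low signal limits ABCA1, whose untreated levels lay near the lower quartile. The main counts of members higher with the knockdown include ABCA1, tested only because it is high with doxycycline.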
